A study of Mus musculus with 6 samples.

Results

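Immediate early genes are induced within minutes of a stimulus, and 10 of them (Fos, Fosb, Jun, Junb, Egr1, Atf3, Ier2, Dusp1, Nr4a1 and Btg2) were followed through 6 RNA-Seq libraries of mouse diaphragm muscle at E14.75. The rule that names the genes uses no measured value, although the list was drawn up with earlier results of these data known, and they are 10 of the 23073 genes with a value. Whole diaphragm came from erbB3 WT embryos (wild-type 5 and 6, n = 2) and from erbB3 KO embryos (mutant 1 and 2, n = 2), whose muscle the labels describe as containing and as lacking Schwann cells. The remaining libraries (Wnt1-Ribotag 1 and 2, n = 2, titled TOM, an abbreviation the labels do not explain) came from embryos with Wnt1-Cre, the Ribotag allele and wild-type erbB3. In these animals a hemagglutinin-tagged ribosomal protein is made in cells that express Wnt1-Cre and in their descendants, the neural crest lineage that includes Schwann cells, and RNA was taken from polysomes precipitated with an antibody against the tag. By the study's methods each Wnt1-Ribotag library came from the diaphragms of a litter homogenized together before genotyping, and the tag was carried by the Cre-positive ones among them. Thus erbB3 genotype and RNA preparation differ together between Wnt1-Ribotag and mutant libraries and cannot be told apart there. The labels call the libraries of a group biological replicates, without naming animals.

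Immediate early genes need no new protein for their induction. Growth factors, calcium entry, stretch and stress reach them through the MAP kinases ERK, p38 and JNK and through cAMP, which act on factors already bound to their promoters, such as serum response factor with its Elk partners, CREB and ATF2. Their mRNAs are short-lived, their protein products are mostly transcription factors or feedback inhibitors, and their induction by dissection, warming and cell dissociation is the reason that they are read as a sign of tissue handling. The libraries carry no record of dissection time or order, so a part of handling in any value given here was not tested.

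The promoters of these genes are where such signals arrive, and the sequence of 250 bases before the transcription start was found for 8 of the 10 genes in RefSeq (GRCm38.p6), the exceptions being Egr1 and Ier2. The letters TGACG, the core of the element that CREB and ATF factors bind, were sought on both strands. They stood in 7 of the 8 windows, Jun being the exception, against 17.8% of 32851 promoters of the same length. The windows with the most sites are shown, while Jun had 0 and Atf3, Fosb and Junb had 1 each. Nr4a1 had 4 sites, at 233, 213, 69 and 40 bases before the start, and Dusp1, the feedback phosphatase, had 3. Of all promoters 0.688% had at least 3. Btg2 and Fos, the namesake of the class, had 2 each. Capitals mark TGACG or its complement CGTCA, 5′ to 3′ on the strand of the gene.
Nr4a1, chr15:101266596-101266845, + strand: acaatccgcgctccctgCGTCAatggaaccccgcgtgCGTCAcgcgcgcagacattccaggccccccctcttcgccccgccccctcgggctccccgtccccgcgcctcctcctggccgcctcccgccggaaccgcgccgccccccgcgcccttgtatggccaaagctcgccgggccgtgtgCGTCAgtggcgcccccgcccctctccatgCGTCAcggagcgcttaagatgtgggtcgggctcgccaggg
Fos, chr12:85473640-85473889, + strand: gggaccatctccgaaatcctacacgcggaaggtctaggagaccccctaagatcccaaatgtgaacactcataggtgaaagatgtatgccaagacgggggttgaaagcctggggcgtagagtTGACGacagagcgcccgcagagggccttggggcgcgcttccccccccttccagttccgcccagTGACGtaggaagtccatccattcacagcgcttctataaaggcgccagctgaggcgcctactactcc
Dusp1, chr17:26508473-26508722, - strand: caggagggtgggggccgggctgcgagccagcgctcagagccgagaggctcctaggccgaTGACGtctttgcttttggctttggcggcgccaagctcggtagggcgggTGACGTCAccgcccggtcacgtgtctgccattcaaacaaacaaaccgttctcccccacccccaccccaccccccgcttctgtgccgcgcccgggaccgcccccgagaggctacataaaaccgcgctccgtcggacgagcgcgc
Btg2, chr1:134079156-134079405, - strand: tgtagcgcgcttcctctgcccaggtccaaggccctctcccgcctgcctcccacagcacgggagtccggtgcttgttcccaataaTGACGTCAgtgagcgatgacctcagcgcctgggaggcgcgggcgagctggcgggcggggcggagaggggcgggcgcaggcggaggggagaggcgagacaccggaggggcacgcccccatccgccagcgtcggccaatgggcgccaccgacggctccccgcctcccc
The full palindrome TGACGTCA, which holds TGACG on both strands and is counted there too, stood in the windows of Dusp1 and Btg2, 2 of 8, against 1.55% of all promoters. GCGNGGGCG, the letters that EGR factors bind, was in 3 of 8 (Fosb, Nr4a1 and Btg2) against 4.7%. The CArG box of serum response factor was in 0 of 8 against 1.47%, which says only that it is not within these 250 bases. TATAAA was in 1 of 8, Fos, 33 bases before the start, against 12.4%. These are matches of letters and not shown to be bound in diaphragm. The RefSeq starts of Nr4a1, Dusp1 and Atf3 lie inside the longer gene spans that GENCODE gives these genes, which include further transcripts.

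The transcripts had further features in common that the choice of the genes did not use, although such features are known of the class. In GENCODE M21 the 10 genes had between 1 and 8 exons, with a median of 3 against 8 over 19262 genes with a coding transcript. Their transcripts spanned a median of 3.67 kb of genome against 18.0 kb, and 8 of 10 spanned under 10 kb against 33.6% of all genes. ATTTA, the core of AU-rich elements that speed mRNA decay, was in the 3′ UTR of 9 of 10, Ier2 being the exception, against 62.4%. It occurred at least 3 times in 6 of 10, against 32.4%, and a median of 2.89 times per kb of 3′ UTR against 1.14.

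All 10 genes were above the floor, the small value that stands for a gene without reads, in all 6 libraries. Levels are given as RPKM, reads scaled to gene length and to depth of mapped reads, and so can be compared between genes. They spread over 2 orders of magnitude, from Fosb at 0.141 in Wnt1-Ribotag 1 to Jun at 25.5 in Wnt1-Ribotag 2. In wild-type muscle Jun lay above 87.8% of all genes by its mean RPKM, Ier2 above 77.4%, Btg2 above 76.5% and Egr1 above 75.7%. Fos lay above 48.5%, Junb above 48.2%, Atf3 above 47.8% and Fosb above 36.6%.

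**Figure D1:**
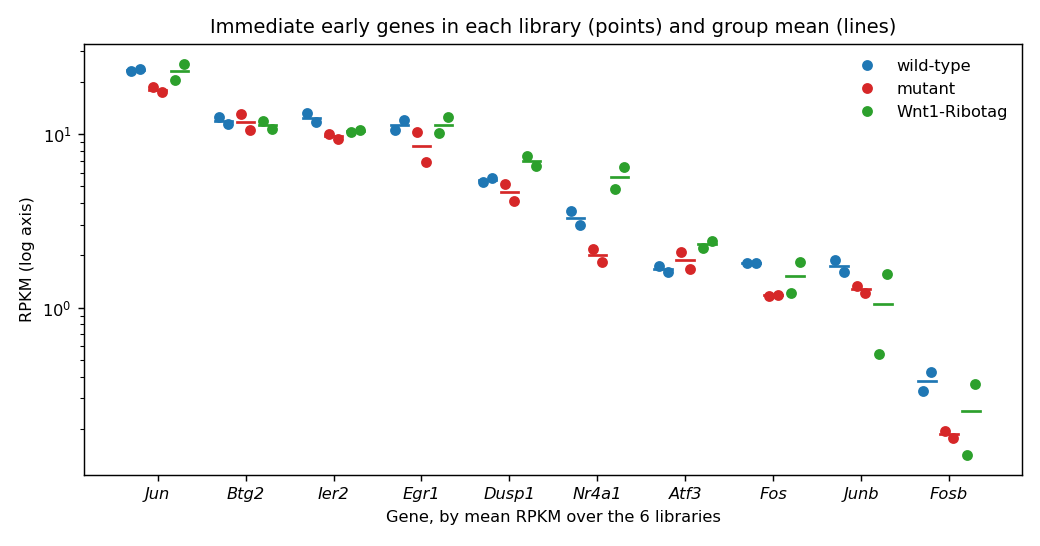
RPKM (log axis) of the 10 genes, ordered by mean RPKM, in the 2 libraries of each group (points, lower replicate number on the left) with the group mean (lines). Jun is highest in all 6 libraries and Fosb lowest, and the groups stand furthest apart in Nr4a1.

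The order of the levels was nearly shared by the groups. Jun was first and Fosb last in all 3, with no overlap with their neighbours. In wild-type muscle Ier2, Btg2 and Egr1 followed Jun with overlapping values, then Dusp1 and Nr4a1 each apart from its neighbours, then Fos, Junb and Atf3 with overlapping values. In mutant muscle Btg2 came second, Ier2 and Egr1 overlapped, and Nr4a1 and Atf3 overlapped. In Wnt1-Ribotag RNA Egr1 and Btg2 overlapped in second place, and Fos overlapped with Junb. Such an overlap means that neighbours in the order do not differ beyond the spread of 2 libraries.

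Among the subunits of AP-1, the dimeric transcription factor of Fos and Jun proteins, Jun (ENSMUSG00000052684, chr4:95049034-95052222 of GRCm38, 1 exon) had RPKM of 23.2 and 23.6 in wild-type, 18.6 and 17.5 in mutant and 20.5 and 25.5 in Wnt1-Ribotag libraries. Both mutant libraries were below all others. Junb (ENSMUSG00000052837, chr8:84974484-84978718), a Jun family member that is the weaker activator, had 1.87 and 1.61, 1.34 and 1.21, and 0.538 and 1.57 in the same order. The lowest value was that of Wnt1-Ribotag 1, while Wnt1-Ribotag 2 was close to wild-type 6, so that this group spanned the mutant one.

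Fos (ENSMUSG00000021250, chr12:85473890-85477273), the partner of Jun in the classical AP-1 dimer, had 1.81 in both wild-type libraries, 1.17 and 1.18 in mutant and 1.21 and 1.84 in Wnt1-Ribotag libraries. The wild-type and mutant pairs were each tight and did not overlap, while the Wnt1-Ribotag pair reached from near the mutant to the wild-type level. Fosb (ENSMUSG00000003545, chr7:19302696-19310051), its paralogue, had 0.331 and 0.425, 0.194 and 0.178, and 0.141 and 0.365. The wild-type and mutant pairs did not overlap here either, but the Wnt1-Ribotag pair spanned the mutant one, and Fosb was at a lower level than Fos (0.378 ± 0.067 in wild-type muscle vs. 1.81 ± 0.00091 for Fos, mean ± SD, n = 2).

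Of the other transcription factors, the zinc finger protein gene Egr1 (ENSMUSG00000038418, on chromosome 18) had RPKM of 10.6 and 12.1 in wild-type, 10.3 and 6.86 in mutant and 10.1 and 12.5 in Wnt1-Ribotag libraries. Mutant 2 stood alone at the low end, and mutant 1 was close to the rest. Atf3 (ENSMUSG00000026628, chr1:191170296-191218039), a stress-induced factor of the ATF/CREB family known as an injury marker in neurons and Schwann cells, had 1.74 and 1.61, 2.1 and 1.66, and 2.21 and 2.42. Both Wnt1-Ribotag values were the highest of the 6. Nr4a1 (ENSMUSG00000023034, chr15:101254269-101274795), an orphan nuclear receptor also called Nur77, had 3.61 and 3.0, 2.17 and 1.84, and 4.83 and 6.5. No groups overlapped in Nr4a1, with mutant lowest, wild-type between and Wnt1-Ribotag highest, and its highest value was 3.53 times its lowest.

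Among the feedback regulators, Dusp1 (ENSMUSG00000024190, chr17:26505590-26562128), the phosphatase that switches MAP kinases off, had RPKM of 5.28 and 5.59 in wild-type, 5.19 and 4.14 in mutant and 7.45 and 6.52 in Wnt1-Ribotag libraries. Its groups did not overlap and had the same order as in Nr4a1. Btg2 (ENSMUSG00000020423, chr1:134075170-134079120), an antiproliferative gene that recruits the deadenylation machinery, had 12.5 and 11.4, 13.1 and 10.5, and 11.9 and 10.7. All its groups overlapped, and its highest value was 1.25 times its lowest, the narrowest range of the 10. Ier2 (ENSMUSG00000053560, chr8:84661331-84662852, 1 exon), an early response gene of nuclear localization, had 13.2 and 11.7, 10 and 9.43, and 10.3 and 10.5, so that no groups overlapped and both wild-type libraries were above the other 4.

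Some of these genes share sequence with a neighbour, and the strand setting of the counting is not given in the sources used here. Exons of Jun overlap the antisense gene Junos, those of Junb overlap Prdx2 and those of Dusp1 overlap Ergic1. Prdx2 ranged from 138 to 221 RPKM and Ergic1 from 24.6 to 57.5, so reads of these abundant neighbours could add to the values of Junb and Dusp1, which are uncertain to that extent. Ergic1 was, like Dusp1, lowest in mutant 2 and highest in Wnt1-Ribotag 1. Its part in the values of Dusp1 was not tested.

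The libraries carried 100178863 to 230216660 mapped reads and had 17205 to 20349 genes above the floor, with fewer such genes in the Wnt1-Ribotag libraries. Sox10, a Schwann cell factor, had RPKM of 2.89 and 2.16 in wild-type, 0.00854 and 0.0178 in mutant and 15.5 and 32.2 in Wnt1-Ribotag libraries. Erbb3 itself had 16.5 and 15.8, 21.5 and 11.9, and 19.5 and 25.3 (a log2 difference of -0.01, SE 0.24, adjusted p = 0.992 from limma in mutant vs. wild-type), so its RNA level did not check the genotype. The summed RPKM of 8 muscle markers was 1520 to 1850 in wild-type, 1580 to 2960 in mutant and 1630 to 1800 in Wnt1-Ribotag libraries, so that RNA of tagged ribosomes held muscle markers at the level of whole muscle. Of the sums of other markers given next, that of liver alone differed without overlap between mutant and wild-type libraries. The sum of 8 liver markers was 158 to 512 in wild-type, 12.5 to 20.6 in mutant and 200 to 293 in Wnt1-Ribotag libraries, and that of 7 erythroid markers was 4010 to 7540, 4800 to 5860 and 2940 to 3200. The sum of 7 macrophage markers was 124 to 139, 113 to 133 and 64.1 to 71.4. That of 8 endothelial markers was 55.4 to 59.5, 46.7 to 62.2 and 42.8 to 44.6. For 6 mural cell markers it was 375 to 394, 364 to 410 and 190 to 242. Fibroblast markers, 7 genes, summed to 3150 in each wild-type library, then 2500 to 3390 and 2310 to 2470. All these sums but that of liver were lower in each Wnt1-Ribotag library than in any other library. No gene of these lists was at the floor in any library.

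The comparison of mutant with wild-type muscle asks what the loss of Schwann cells was accompanied by in the muscle. In it 8 of the 9 immediate early genes tested had a log2 fold change below 0, but none passed the test. Differences were taken on log2(RPKM + 0.5), which understates those of low genes, for genes whose RPKM averaged 0.5 or more in the 4 libraries compared, with limma and Benjamini-Hochberg adjustment over all of them. Fosb was under that level. By limma 0 of 9 were called at an adjusted p under 0.05, against 0.171% of the 14052 genes tested, or by direction 0.0498% higher and 0.121% lower. With an unadjusted p under 0.05, 4 of 9 were lower in mutant muscle, against 9.66% of all genes, and 0 were higher, against 2.38%. All genes leaned the same way: 67.0% had a log2 fold change below 0 and their median was -0.10, beside a median of -0.34 for the 9. In whole muscle, fewer cells of a type and less RNA per cell cannot be told apart.

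Nr4a1 had the largest difference, at 3.31 ± 0.43 (SD, n = 2) in wild-type and 2.01 ± 0.23 in mutant muscle. Its log2 fold change was -0.60 (SE 0.17, 95% interval -0.99 to -0.22, adjusted p = 0.281 from limma). Fos, at 1.81 ± 0.00091 and 1.17 ± 0.0044 (SD, n = 2), had -0.46 (SE 0.15, adjusted p = 0.369 from limma). Egr1, at 11.4 ± 1.09 and 8.57 ± 2.42, had -0.41 (SE 0.20, adjusted p = 0.43 from limma). It was -0.14 without mutant 2 and -0.69 without mutant 1. Jun, at 23.4 ± 0.31 and 18.1 ± 0.80, had -0.37 (SE 0.13, adjusted p = 0.378 from limma). Ier2 and Junb each had -0.34, with adjusted p of 0.405 and 0.431 from limma. Dusp1 had -0.21, with an interval from -0.58 to 0.16, and -0.06 without mutant 2 or -0.36 without mutant 1. Btg2 at -0.03 (interval -0.38 to 0.33) and Atf3 at 0.12 (-0.27 to 0.51) were nearest to no difference, and their signs turned with the library left out. Without mutant 1 and without mutant 2, Btg2 had -0.18 and 0.13, and Atf3 had -0.01 and 0.26.

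In 7 of the 9 genes tested each mutant library was below each wild-type library, against 37.4% of all genes tested, and the same held for Fosb, which in a fit without a filter was at -0.35 on the log2 scale (SE 0.07; limma, adjusted p = 0.462). Genes that were higher without overlap numbered 0 of 9, against 12.7%. Scaling the libraries to each other by the median of gene ratios brought the median of all genes to 0.00 and that of the 9 to -0.25, with 2 of 9 then above 0. The markers of liver were lower in mutant muscle in 8 of 8 genes tested, of which 2 were called, and those of Schwann cells in 6 of 6, of which 3 were called, against 0.121% of all genes called lower. Their part in the differences of the immediate early genes was not tested.

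**Figure D2:**
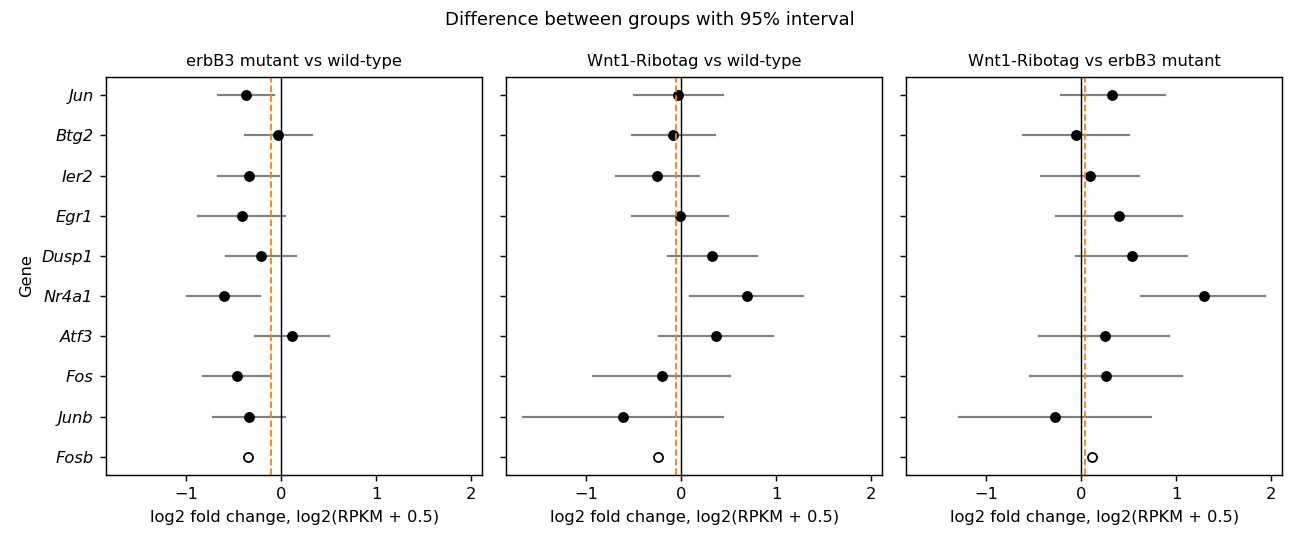
Log2 fold change on log2(RPKM + 0.5) of the 10 genes in the 3 comparisons (points, with 95% intervals from limma as lines; open points mark Fosb, which was not tested). Solid lines mark 0 and dashed lines the median of all genes tested; Nr4a1 lies at -0.60, 0.69 and 1.29 from left to right.

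RNA of tagged ribosomes was compared with whole wild-type muscle, the group of the same erbB3 genotype. The comparison is meant to reach the Wnt1 lineage, although the precipitated RNA also held the muscle and liver markers given above. Lineage, binding to ribosomes and RNA preparation cannot be told apart in it. Here the genes lay to both sides of 0. By limma 0 of 9 tested were called, against 0.00694% of 14418 genes. Of the 8 Schwann cell markers 0 were called too, although 8 of 8 were higher without overlap, with a median of 2.69. Macrophage markers were lower without overlap in 7 of 7, with a median of -0.91 and 0 called. Over all genes 23.3% were higher and 31.0% lower without overlap. A lack of calls thus does not show a lack of difference in this comparison. With an unadjusted p under 0.05, 1 of 9 was higher in Wnt1-Ribotag RNA, against 8.19% of all genes, and 0 were lower, against 11.3%. The log2 fold change was above 0 in 3 of 9, against 45.6% of all genes, and below 0 in 6, against 54.4%. The median log2 fold change of the 9 was -0.03, next to -0.05 for all genes.

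Nr4a1, at 5.66 ± 1.18 RPKM (SD, n = 2) in Wnt1-Ribotag and 3.31 ± 0.43 in wild-type libraries, had a difference of 0.69 on the log2 scale (SE 0.23, interval 0.09 to 1.28, adjusted p = 0.224 from limma). Dusp1, at 6.98 ± 0.66 and 5.44 ± 0.22, had 0.33 (SE 0.18, adjusted p = 0.379 from limma), and Atf3, at 2.31 ± 0.15 and 1.68 ± 0.094, had 0.37 (SE 0.23, adjusted p = 0.431 from limma). These 3 of 9 genes were higher without overlap, against 23.3% of all genes, and 2 of 9, Junb and Ier2, were lower without overlap, against 31.0%. Junb, at 1.05 ± 0.73 and 1.74 ± 0.18, had -0.61 with a wide interval from -1.66 to 0.44, and Ier2, at 10.4 ± 0.17 and 12.4 ± 1.11, had -0.25 (-0.68 to 0.19). Jun at -0.03, Egr1 at -0.01 and Btg2 at -0.08 were close to 0, with intervals of -0.50 to 0.44, -0.52 to 0.49 and -0.52 to 0.36. Fos had -0.20 (-0.93 to 0.52).

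Single libraries moved the values of Nr4a1 and Junb. Without Wnt1-Ribotag 1 the log2 fold change of Nr4a1 was 0.88, and without Wnt1-Ribotag 2 that of Junb was -1.11. Conversely, Nr4a1 had 0.49 without Wnt1-Ribotag 2 and Junb had -0.12 without Wnt1-Ribotag 1. The fits that left no library out gave an adjusted p from limma of 0.14 to 0.329 for Nr4a1 and 0.344 to 0.61 for Junb. Without Wnt1-Ribotag 1 and without Wnt1-Ribotag 2, Fos had 0.02 and -0.43, Jun 0.12 and -0.19, Egr1 0.14 and -0.17, and the median of the 9 was 0.12 and -0.17. The remaining Wnt1-Ribotag library is in such fits assumed to vary like the wild-type ones. With libraries scaled by the median of gene ratios, 5 of 9 genes instead of 3 lay above 0.

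For Wnt1-Ribotag vs. mutant libraries the log2 fold change was above 0 in 7 of the 9 genes tested, against 53.0% of all genes, and below 0 in 2, against 47.0%, and Nr4a1 had the largest difference. By limma 0 of 9 were called, against 1.19% of 14325 genes, with 1.02% higher and 0.175% lower. With an unadjusted p under 0.05, 1 of 9, Nr4a1, was higher, against 11.8% of all genes, and 0 were lower, against 7.46%. The median of the 9 was 0.26 beside 0.04 for all genes, but 0.03 with quantile normalization (-0.07 for all genes), 0.12 without mutant 2 and 0.45 without Wnt1-Ribotag 1. In 6 of 9 each Wnt1-Ribotag library was above each mutant library, against 29.7% of all genes, and in 0 of 9 below, against 24.4%.

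Nr4a1 was at 5.66 ± 1.18 in Wnt1-Ribotag and 2.01 ± 0.23 in mutant libraries (SD, n = 2), 2.82 times as high by RPKM. Its log2 fold change was 1.29 (SE 0.27, interval 0.63 to 1.94, adjusted p = 0.0967 from limma). The call depended on the fit. Among fits without a block of replicate numbers, it passed with all 6 libraries in the fit (adjusted p = 0.0322 from limma). That fit called 692 of 14325 genes, against 171 with the 4 libraries of the comparison. Nr4a1 did not pass with another pseudocount, filter or scaling or without the trend. Its log2 fold change was 1.48 without Wnt1-Ribotag 1, 1.09 without Wnt1-Ribotag 2, 1.38 without mutant 1 and 1.19 without mutant 2. Dusp1 had 0.54 (interval -0.05 to 1.12, adjusted p = 0.29 from limma), Egr1 0.40 (-0.26 to 1.06), Jun 0.33 (-0.21 to 0.88), Fos 0.26 (-0.54 to 1.06), Atf3 0.25 (-0.44 to 0.93) and Ier2 0.09 (-0.42 to 0.61). With 1 library left out at a time, Egr1 ran from 0.12 (without mutant 2) to 0.67 (without mutant 1) and Atf3 from 0.11 to 0.38 for the same libraries. Fos ran from 0.03 (without Wnt1-Ribotag 2) to 0.49 (without Wnt1-Ribotag 1), Jun from 0.18 to 0.49 for the same libraries, and Ier2 from 0.05 to 0.13 (without mutant 2 and without mutant 1). Btg2 had -0.05 (-0.61 to 0.50), from -0.20 without mutant 2 to 0.10 without mutant 1. Junb had -0.27 (-1.29 to 0.74), and without Wnt1-Ribotag 2 this became -0.77, while without Wnt1-Ribotag 1 it was 0.22. Each comparison shares its libraries with the others, so the 3 values of a gene are not independent of each other.

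Markers of Schwann cells, part of the lineage that carries the tag, were higher in Wnt1-Ribotag than in mutant libraries in 8 of 8 genes, of which 6 were called, and the liver markers in 8 of 8, of which 7 were called, against 1.02% of all genes called higher. All 7 macrophage markers had a log2 fold change below 0, with a median of -0.65 and 0 called by limma (4 of 7 lower with an unadjusted p under 0.05, against 7.46% of all genes). The part of these cells in the values of Nr4a1 and the rest was not tested.

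The libraries of a title share genotype and preparation, so their differences show how far the genes vary without either. A difference of 2-fold or more on log2(RPKM + 0.5) was seen in 0 of the 10 genes in each pair, a count that rests on the pseudocount, since Junb was 2.92 and Fosb 2.59 times as high in RPKM in Wnt1-Ribotag 2 as in Wnt1-Ribotag 1. Of all genes, 0.501% were that much higher and 0.53% lower in wild-type 6, and 0.303% higher and 1.12% lower in mutant 2. Between wild-type 6 and wild-type 5 the median absolute difference was 0.14 for the 10 genes and 0.13 for all genes, and 4 of 10 were higher in wild-type 6 (3 of 10 with libraries scaled by the median of gene ratios or by quantiles), against 60.7% of all genes. The largest was that of Nr4a1 at -0.23, and 24.0% of all genes differed by more.

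Between mutant 2 and mutant 1 the median absolute difference was 0.15, against 0.19 for all genes. Of the 10, 1 was higher in mutant 2 (Fos, by 0.01), against 39.5% of all genes. With libraries scaled by the median of gene ratios or by quantiles this was 3 of 10, and the median difference of the 10 was -0.06 or -0.05 in place of -0.15. Egr1 was lower in mutant 2 by the largest amount, -0.55, a difference that 7.55% of all genes exceeded. Dusp1 and Btg2 had -0.30 each and Atf3 -0.27.

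Between Wnt1-Ribotag 2 and Wnt1-Ribotag 1 the median absolute difference was 0.31, against 0.39 for all genes, and 8 of 10 were higher in Wnt1-Ribotag 2, against 61.4%. With the same scalings it was 6 of 10, and the median difference was 0.15 or 0.20 in place of 0.31. Junb stood out with 0.99, which 13.9% of all genes exceeded. Fos had 0.45, Fosb 0.43 and Nr4a1 0.39, while Dusp1 had -0.18 and Btg2 -0.14. In this pair 8.33% of all genes were at least 2-fold higher and 5.44% at least 2-fold lower. Schwann cell markers summed to an RPKM of 92.4 in the first and 278 in the second library, and the part of these markers in the differences of the 10 genes was not tested.

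**Figure D3:**
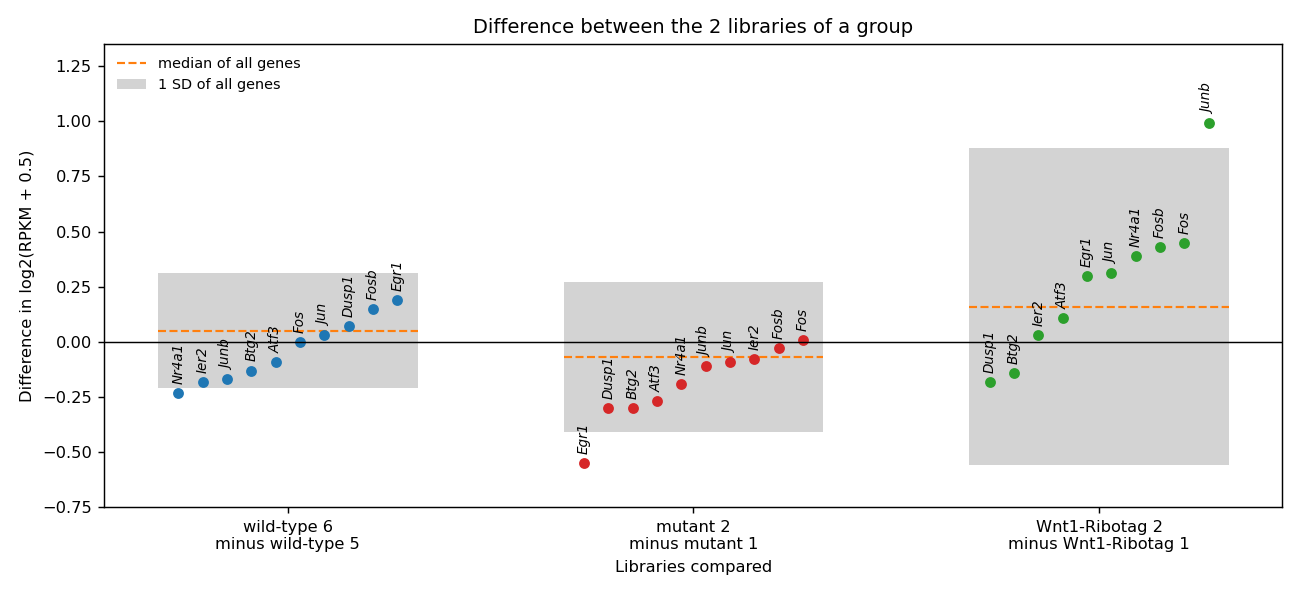
Difference in log2(RPKM + 0.5) of each of the 10 genes between the 2 libraries of a group (points, in ascending order), with the median of all genes (dashed) and 1 SD of all genes to either side of it (grey). Egr1 at -0.55 in the mutant pair and Junb at 0.99 in the Wnt1-Ribotag pair lie outside the grey band, and so does Nr4a1 at -0.23 in the wild-type pair.

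The members differed in how closely they followed each other over the 6 libraries. The correlation (Pearson's r over 6 libraries, a description of points that share groups and depth) of a gene with the mean of the other 9 was 0.967 for Jun, 0.882 for Egr1 and 0.832 for Fos, and 0.201 for Junb and 0.003 for Btg2. The genes outside the set most like its mean, of 12783 that averaged an RPKM of 1 or more, were Zfp414, Phc2, Rasa3, Zscan22 and Sugp1, with r from 0.992 to 0.996. After centring within each title, where only 3 differences are free, they were Hist1h4i, Prkcq, Capn3, Itga10 and Ackr4, all with r of 1.0. With this centring the correlation of a member with the mean of the other 9 was 0.909 for Jun, 0.745 for Egr1 and 0.749 for Fos. It was 0.76 for Junb, 0.099 for Btg2 and -0.063 for Dusp1, so the place of Junb depended on the centring.

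Other genes of the response were described from lists. Of 39 other immediate early genes, 32 were tested in mutant vs. wild-type muscle, 0 were called by limma, 3 were lower at an unadjusted p under 0.05 and 0 higher, against 9.66% and 2.38% of all genes, and 24 lay below 0, against 67.0%, with a median of -0.18 beside -0.10. These counts were near those of all genes. Nr4a2, a nuclear receptor of the same family as Nr4a1, had RPKM of 1.84 and 1.64 in wild-type, 1.09 and 0.788 in mutant and 3.84 and 5.94 in Wnt1-Ribotag libraries. Its groups did not overlap and had the order of those of Nr4a1. Nr4a3, the remaining member of the family, had 0.179 and 0.295, 0.137 and 0.161, and 0.211 and 0.827. The log2 fold change of Nr4a2 was -0.65 (SE 0.18, adjusted p = 0.271 from limma) in mutant vs. wild-type, 1.24 (SE 0.27, adjusted p = 0.171) in Wnt1-Ribotag vs. wild-type and 1.89 (SE 0.32, adjusted p = 0.0571) in Wnt1-Ribotag vs. mutant. The pluripotency and epithelial factor gene Klf4 had -0.45, Ppp1r15a, which reverses the integrated stress response, -0.42, and the AP-1 subunit gene Fosl2 -0.35 in mutant vs. wild-type muscle.

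In Wnt1-Ribotag RNA the other immediate early genes had a median of -0.26 vs. wild-type and -0.12 vs. mutant muscle, beside -0.05 and 0.04 for all genes, with 0 of 31 called by limma in each. At an unadjusted p under 0.05, 2 of 31 were higher and 4 lower vs. wild-type, against 8.19% and 11.3% of all genes, and 3 were higher and 3 lower vs. mutant muscle, against 11.8% and 7.46%, which is near the share of all genes. Ier5l had -1.44 and -1.23 in the 2 comparisons, and Dusp5, a phosphatase of nuclear ERK, -1.05 and -1.07. Hbegf, a ligand of the EGF receptor, had 0.79 vs. wild-type, and Ppp1r15a 0.98 vs. mutant muscle.

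Of the 22 kinases and transcription factors that lie upstream, all were tested, 0 were called by limma in any comparison, and their medians were -0.11, 0.02 and 0.17 in the order mutant vs. wild-type, Wnt1-Ribotag vs. wild-type and Wnt1-Ribotag vs. mutant. At an unadjusted p under 0.05 there were 0 higher and 2 lower, 2 higher and 1 lower, and 3 higher and 0 lower of 22 in that order. Over all genes the shares were 2.38% higher and 9.66% lower, 8.19% and 11.3%, and 11.8% and 7.46%, with medians of -0.10, -0.05 and 0.04, so the counts were near those of all genes. Rps6ka1, an ERK-activated kinase, had -0.63 (SE 0.14, adjusted p = 0.171 from limma) in mutant muscle, and Elk3, a ternary complex factor, -0.43. Elk4, a partner of serum response factor, had RPKM of 30.4 and 10 in Wnt1-Ribotag libraries and 3.93 to 4.9 in the other 4. On the log2 scale it was at 1.88 (SE 0.52; limma, adjusted p = 0.193) and 1.99 (SE 0.48; adjusted p = 0.119) in the Wnt1-Ribotag comparisons, with Wnt1-Ribotag 1 far above Wnt1-Ribotag 2, while Creb1 had 0.77 and 0.69.

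Heat shock genes and genes induced by hypoxia are read as signs of handling as well. Of 13 heat shock genes tested 0 were called by limma in any comparison, and their medians were -0.13, -0.27 and -0.25 beside -0.10, -0.05 and 0.04 for all genes. At an unadjusted p under 0.05 there were 0, 0 and 1 of 13, the 1 being lower in Wnt1-Ribotag vs. mutant libraries, while of all genes 2.38% were higher and 9.66% lower, 8.19% and 11.3%, and 11.8% and 7.46%. Hspa1a, the inducible chaperone of the HSP70 family, had -0.60 in mutant muscle (interval -1.33 to 0.13) and -0.99 in Wnt1-Ribotag RNA vs. wild-type muscle (-2.14 to 0.15). The co-chaperonin gene Hspe1 had 0.36 in mutant muscle, and -0.61 and -0.96 in the Wnt1-Ribotag comparisons. Of 15 genes induced by hypoxia 0 were called by limma, with medians of -0.15, -0.17 and 0.08 beside -0.10, -0.05 and 0.04 for all genes. At an unadjusted p under 0.05 there were 0 higher and 2 lower, 1 higher and 4 lower, and 2 higher and 2 lower of 15, against 2.38% and 9.66%, 8.19% and 11.3%, and 11.8% and 7.46% of all genes. The glucose transporter gene Slc2a1 had -0.70 in mutant muscle (SE 0.16, adjusted p = 0.174 from limma), Ldha, which makes lactate, -0.80 and -0.71 in the Wnt1-Ribotag comparisons, and Egln1, the oxygen sensor of the pathway, 0.91 and 1.17.

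**Figure D4:**
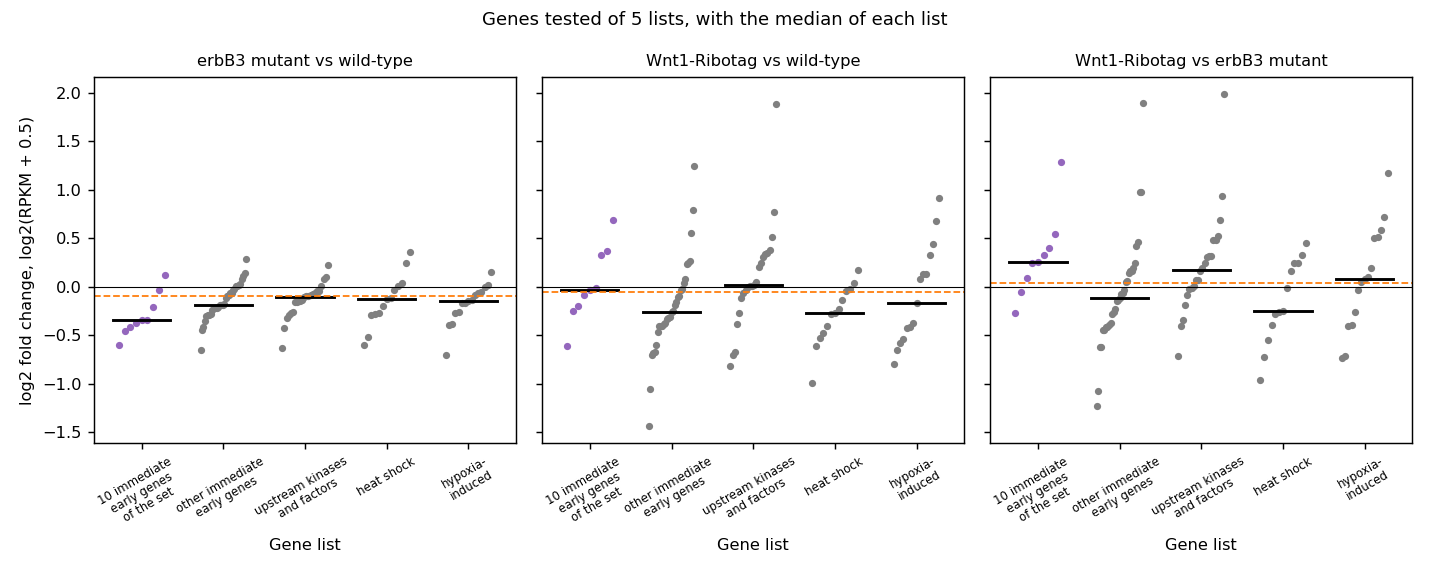
Log2 fold change on log2(RPKM + 0.5) of the genes tested in 5 lists (points, in ascending order) in the 3 comparisons, with the median of each list (black bars), 0 (solid) and the median of all genes tested (dashed). The set of 10, 9 of them tested, has medians of -0.34, -0.03 and 0.26, and 0 genes of the 5 lists passed the threshold.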

How the data were processed

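RNA-Seq libraries were grouped by the labels. The authors deposited RPKM for each library, with a mark for genes at the floor. The submitters' processing notes name STAR and the mm9 build, and the counter and its strand setting are not given in the sources used here. Libraries were oligo-dT selected. Depth was computed from the floor values of microRNAs (223 genes, with 81.2% giving an identical depth), and read counts could not be recovered. Symbols and positions are from GENCODE M21 on GRCm38, matched by identifier (21583 matched, 1490 not). Log2(RPKM + 0.5) was fitted, for genes averaging an RPKM of 0.5 or more, with limma 3.58.1 (eBayes with a trend) in R 4.3.3 on the 4 libraries of each comparison, with Benjamini-Hochberg adjustment over all genes tested. Tables and figures used Python 3.11.15, numpy 2.4.6, pandas 2.3.3 and matplotlib 3.10.9. On simulated data 2-fold changes were recovered in 100, 83 and 69% of cases (mutant vs. wild-type, Wnt1-Ribotag vs. wild-type and Wnt1-Ribotag vs. mutant, with 14052, 14418 and 14325 genes). The simulated noise depended on the level alone and was equal in the groups compared, unlike that of the libraries. These shares therefore do not give the power for a member. In the libraries Sox10, at 2.93 in Wnt1-Ribotag vs. wild-type, was not called (adjusted p = 0.134 from limma). The members and lists were chosen with earlier results of these data known. Genes named are all 10 members and, of each other list and comparison, up to 4 called genes or those with the largest log2 fold changes at a mean RPKM of at least 1, of which the text gives part. Nr4a3 was added as the family's remaining member after its values were seen. Alternatives tried were no filter, a minimum mean RPKM of 1, pseudocounts of 0.1 and 1, median-ratio and quantile scaling, no trend, all 6 libraries in a fit, a replicate block and leaving out each library.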

Additional observations from a re-analysis of the deposited data

How the results depend on the processing

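Of 333 alternative values of single members, 7 crossed the threshold (5 of Nr4a1 and 2 of Junb) and 15 changed sign, 10 of these when a library was left out. Counts of all genes called moved more. In mutant vs. wild-type muscle 24 genes were called, 0 without a filter, 0 with all 6 libraries in a fit, and 10 to 106 with a library left out. In Wnt1-Ribotag vs. wild-type libraries 1 was called, 0 without a filter, 2 with median-ratio scaling, 138 with all 6 libraries and 26 to 5965 with a library left out. In Wnt1-Ribotag vs. mutant libraries 171 were called, 112 without a filter, 80 with quantile normalization, 692 with all 6 libraries and 112 to 3672 with a library left out. The median log2 fold change of the members ranged from -0.17 (without Wnt1-Ribotag 2) to 0.12 (without Wnt1-Ribotag 1) vs. wild-type, and from 0.12 (without mutant 2) to 0.45 (without Wnt1-Ribotag 1) vs. mutant muscle, where quantile normalization gave 0.03. The cause of these moves was not tested.

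The replicate numbers shared by Wnt1-Ribotag and mutant libraries come with no statement of what they mark, and the deviations of same-numbered libraries had r = 0.168 over 14325 genes. With these numbers as a replicate block 842 genes were called, Nr4a1 among them (adjusted p = 0.0474 from limma), and the median of the members stayed at 0.26. Exact read counts were not recovered, and counting error of low genes such as Fosb was not computed.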
